A study of Mus musculus with 4 samples.

Results

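Interferon-stimulated genes, the 3 catalytic subunits of the immunoproteasome, and the genes that load and form MHC class I molecules were followed in cultured mouse keratinocytes in which Prdm1 could be deleted. The set is a list of 36 gene symbols, chosen by role with earlier results of these data known. Shares of members set beside shares of all genes are therefore descriptions of a list that was not chosen blind. Of these, 34 had at least 1 array probe set that names them alone, out of 12393 such genes on the array, and each gene was read by its brightest such probe set. Isg15 and H2-T23 were read only by probe sets that also name another gene, so no value is given for them. A gene is called measured here if at least 1 of its 4 array values was no lower than 20.04 intensity units, the median over all probe sets, which held for 17 of the members and for 7461 genes in all. The measured genes passed on their highest array, so a gene that is bright on a single array passes through that array.

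The cells were primary keratinocytes from the tail skin of C57BL/6 mice whose Prdm1 gene is floxed, which means flanked by sites at which Cre recombinase cuts. Every culture carried the floxed gene. CKO cells also carried CreER, a Cre recombinase that enters the nucleus when 4-hydroxytamoxifen (4OHT) binds it, and control cells lacked CreER. The 4 groups were CKO 4OHT, CKO EtOH, control 4OHT and control EtOH, where EtOH is the ethanol solvent, given like the drug from day 1 to day 3 in serum-free medium, with harvest on day 5. The labels used here do not name the promoter that drives CreER, the floxed part of Prdm1, or the age and number of the mice behind each culture. Mice with CreER gave the CKO cells and other mice gave the control cells, so genotype and animal cannot be told apart.

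Each group had 1 array. No replicate error exists, no difference could be tested, and the number of arrays limits the precision of every value. Levels are given as linear RMA intensities, and differences as log2. "Higher" and "lower" by count mean at least 2-fold between the arrays compared, and a gene is called apart in CKO 4OHT when its value lies at least 2-fold beyond all 3 other arrays. Because a probe set's brightness depends on its sequence, results compare arrays for 1 gene, and levels of different genes were ranked only to choose which genes to name. Array medians lay between 19.95 and 20.22. Prdm1 was at 6.43 in CKO 4OHT, against 17.0 in CKO EtOH, 52.4 in control 4OHT and 20.7 in control EtOH, the lowest value standing on the array labelled as deleted. Both CKO values lie under the level filter, and 6.43 lies under the 25th percentile of its array, 7.11. In control cells Prdm1 was 1.34 log2 higher with 4OHT than with EtOH. Whether the Prdm1 probe set lies within the floxed stretch is unknown here. Esr1, part of which CreER carries, read 44.4 (CKO 4OHT) and 54.3 (CKO EtOH), against 18.2 in control 4OHT and 11.3 in control EtOH. The keratinocyte markers Krt14, Krt5, Krt6a, Dsp and Trp63 were measured on all 4 arrays, Krt14 at 6437 in CKO 4OHT and between 6587 and 6663 on the other arrays.

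Interferons are secreted proteins that bind surface receptors and, through JAK kinases, activate STAT and IRF transcription factors, which switch on antiviral and antigen-presentation genes. Interferon gamma in particular raises Irf1, and Irf1 in turn activates genes of the class I pathway, in which the immunoproteasome cuts proteins to peptides, the Tap1 and Tap2 pump carries them into the endoplasmic reticulum, and tapasin loads them onto a class I heavy chain paired with B2m. Keratinocytes run this program when infected or inflamed. Blimp-1, the product of Prdm1, is a transcriptional repressor first described at the interferon beta promoter, and the DNA letters it binds overlap those bound by IRF proteins.

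Promoter sequence is shown because interferon control of this program is written in short elements there. The members shown are the 4 measured ones past 2-fold in a comparison, Irf1, Psmb8, Ifih1 and Ifi209, and the GTPases Igtp and Gbp2, which were picked after their matches were seen to show cores that stand together or overlap. The windows run over the 120 bases before the annotated start, from RefSeq on build GRCm38.p6, 5′ to 3′ on the strand of the gene. Capitals mark matches, on either strand, to GAAANNGAA (the core of the interferon-stimulated response element), to TTCNNNGAA (the core of a STAT dimer site) or to GTGAAAG (a core shared by Blimp-1 and IRF sites).
Irf1 (chr11:53769894-53770013, plus strand): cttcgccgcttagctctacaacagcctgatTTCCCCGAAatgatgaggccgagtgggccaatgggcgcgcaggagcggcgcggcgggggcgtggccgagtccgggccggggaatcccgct
Psmb8 (chr17:34198075-34198194, plus strand): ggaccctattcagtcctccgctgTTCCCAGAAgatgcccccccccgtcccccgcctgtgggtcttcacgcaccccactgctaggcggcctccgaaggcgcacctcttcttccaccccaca
Ifih1 (chr2:62646256-62646375, minus strand): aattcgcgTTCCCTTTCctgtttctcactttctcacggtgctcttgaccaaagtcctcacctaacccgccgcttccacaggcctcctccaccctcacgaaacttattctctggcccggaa
Igtp (chr11:58199436-58199555, plus strand): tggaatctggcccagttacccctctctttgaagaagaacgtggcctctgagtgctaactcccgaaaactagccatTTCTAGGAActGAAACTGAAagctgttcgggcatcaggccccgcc
Gbp2 (chr3:142620543-142620662, plus strand): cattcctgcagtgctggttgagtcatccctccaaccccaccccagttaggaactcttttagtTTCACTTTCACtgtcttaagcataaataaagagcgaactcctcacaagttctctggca
Ifi209 (chr1:173630739-173630858, plus strand): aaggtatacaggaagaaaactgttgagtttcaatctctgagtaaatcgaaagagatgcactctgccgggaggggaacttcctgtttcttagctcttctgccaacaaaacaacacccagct

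Irf1 and Psmb8 each held 1 match to the STAT core, at positions -90 to -82 and -97 to -89 from the start. In Igtp the STAT core and the response element core stood beside each other, while the Ifih1 stretch held the response element core alone. Gbp2 held a response element core that overlaps the shared Blimp-1 and IRF core. The Ifi209 stretch held none of these letters, nor did the windows of Irf9 and Irf7, which are not printed. Psmb9 and Tap1 are divergent neighbours whose windows overlap by 275 of 300 bases. The 225 bases between their starts, read on the strand of Tap1, are shown because both genes are members and had unlike values; they held no match.
Psmb9 and Tap1 (chr17:34187331-34187555, plus strand): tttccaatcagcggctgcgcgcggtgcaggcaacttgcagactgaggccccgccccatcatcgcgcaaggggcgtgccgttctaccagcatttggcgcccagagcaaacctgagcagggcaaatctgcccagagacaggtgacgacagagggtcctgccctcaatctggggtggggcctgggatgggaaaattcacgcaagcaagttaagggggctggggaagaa

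Over the whole set, 31 members had a window from 250 bases before to 50 after a start in the table, 38 windows in all. The response element core was found in 39.5% of these member windows and in 8.56% of the 32851 windows of the table. Many members were listed because they are interferon-stimulated genes, so this share depends on the choice of list and is no result of these arrays. The STAT core was in 21.1% of member windows and 8.30% of all windows, and the shared Blimp-1 and IRF core in 5.26% and 4.24%, in Gbp2 and Ifit3 alone among the members. A match is a stretch of letters and not a bound site. Members with and without matches occurred both among those that differed and among those that did not. Oas1a held response element cores and differed by -0.12 between CKO 4OHT and CKO EtOH. Bst2 also held them and differed by 0.0092, on dim values under the level filter.

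**Figure D1:**
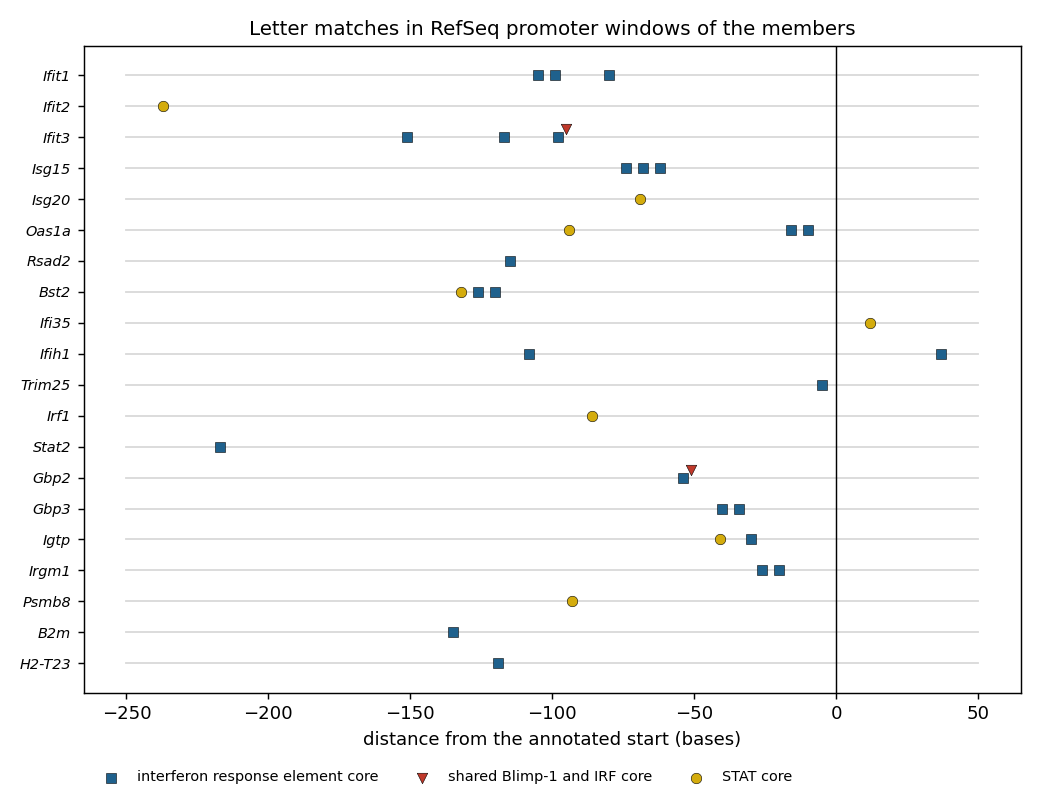
Positions of letter matches in RefSeq promoter windows, by distance in bases from the annotated start (x axis), for the 20 members with at least 1 match (y axis). Squares are the response element core, circles the STAT core and triangles the shared Blimp-1 and IRF core; the triangles of Gbp2 and Ifit3 lie on a square because the matches overlap.

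Across the 17 measured members, CKO 4OHT had lower values of Psmb8, Irf1 and Ifih1 and a higher value of Ifi209, while the MHC class I chains differed little. Against CKO EtOH, 2 members were lower (1.86% of all measured genes were) and 1 was higher (1.78%). Against control 4OHT, 3 were lower (2.24%) and 1 was higher (1.45%). Both comparisons use the CKO 4OHT array and are not independent. The median difference of the measured members was -0.19 against CKO EtOH, where it was 0.0085 over all measured genes, and -0.33 against control 4OHT, where it was 0.013 over all. Below 0 were 12 members against CKO EtOH (48.6% of all measured genes) and 13 against control 4OHT (47.8%), and CKO 4OHT was the lowest of the 4 arrays for 7 members (31.1%) and the highest for 4 (31.7%). Control EtOH was likewise the lowest for 7 members (20.5%). Psmb8 was apart and lower and Ifi209 apart and higher in CKO 4OHT, while 1.09% and 0.751% of all measured genes were apart in those directions. No member was apart on any other array, where the shares of all measured genes were 0.281% higher and 0.0268% lower for control 4OHT and 0% for CKO EtOH and control EtOH.

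**Figure D2:**
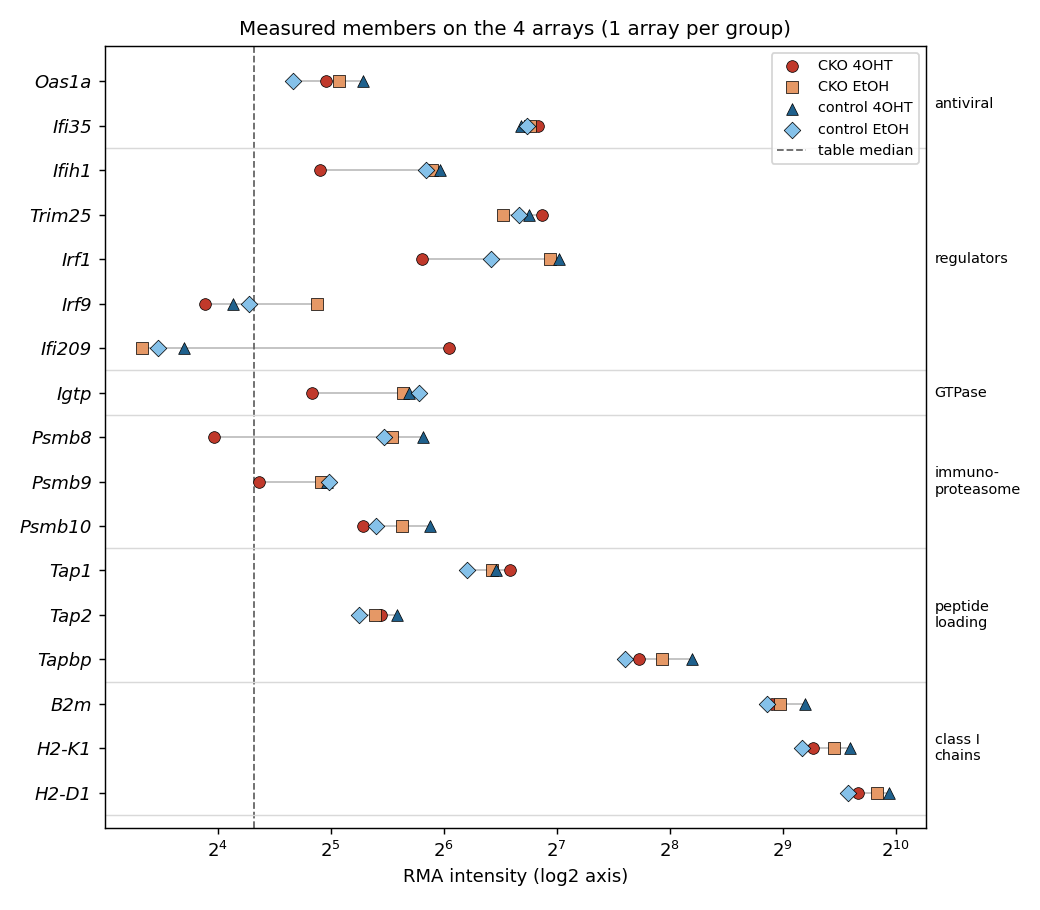
RMA intensity (x axis, log2 scale) of the 17 measured members (rows, grouped by role) on the 4 arrays, 1 point per array; values are comparable within a row only, and the dashed line is the table median used as the level filter. Psmb8 at 15.7 and Ifi209 at 66.2 in CKO 4OHT stand away from the other 3 arrays, and the class I chains lie close together.

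The transcription factors of the set were examined first. Irf1, the factor that activates class I and immunoproteasome genes, was at 56.1 in CKO 4OHT, 123 in CKO EtOH, 130 in control 4OHT and 85.5 in control EtOH. CKO 4OHT was thus lowest, 2.19-fold below CKO EtOH (log2 difference -1.13) and 2.32-fold below control 4OHT (-1.21), but by less than 2-fold from control EtOH. With 16 units added before log2, Irf1 differed by -0.95 from CKO EtOH, no longer past 2-fold. Irf9, a DNA-binding partner of Stat2, was at 14.8 in CKO 4OHT, 29.5 in CKO EtOH, 17.6 in control 4OHT and 19.4 in control EtOH. Here CKO EtOH was the high array and the single one past the level filter, and Irf9 in CKO 4OHT differed by -0.99 from CKO EtOH and by -0.25 from control 4OHT. Stat2 and Irf7, the factor that drives interferon alpha genes, were under the filter. Irf7 was at 11.6 in CKO 4OHT, 14.5 in CKO EtOH, 15.4 in control 4OHT and 7.79 in control EtOH, where it was lowest.

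Ifih1 encodes MDA5, a cytoplasmic sensor of long double-stranded RNA. It was at 29.9 in CKO 4OHT, 59.5 in CKO EtOH, 62.4 in control 4OHT and 57.4 in control EtOH. The 3 other arrays lay close together and CKO 4OHT below all of them, at differences of -0.99 against CKO EtOH and -1.06 against control 4OHT. The second of these became -0.77 with 16 units added, which ends the call. Trim25, a ubiquitin ligase of the RNA sensor RIG-I, was at 117 in CKO 4OHT, 92.1 in CKO EtOH, 108 in control 4OHT and 102 in control EtOH. CKO 4OHT was highest by a small margin, and its other measured probe set also differed by under 2-fold in every comparison. Usp18, a protease that removes ISG15 from proteins and restrains the interferon receptor, was under the filter, between 5.002 and 6.63.

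Ifi209, a member of the PYHIN family of interferon-inducible nuclear proteins and DNA sensors, went the other way. It was at 66.2 in CKO 4OHT, 10.1 in CKO EtOH, 13.0 in control 4OHT and 11.1 in control EtOH. CKO 4OHT was the single array past the level filter, at 2.72 log2 above CKO EtOH and 5.08-fold above control 4OHT. Because the other 3 values lie near the dim end of the arrays, the size of this difference is imprecise: with 16 units added before log2 it was 1.66 against CKO EtOH and 1.502 against control 4OHT. A second Ifi209 probe set read 24.98 in CKO 4OHT, 7.46 in CKO EtOH, 7.96 in control 4OHT and 6.81 in control EtOH, with differences of 1.74 and 1.65.

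Interferon-inducible GTPases act on the membranes of vacuoles that hold microbes. Igtp, the 1 measured gene of the 5, was at 28.6 in CKO 4OHT, 49.9 in CKO EtOH, 51.8 in control 4OHT and 55.1 in control EtOH. The CKO 4OHT value was the lowest, though not past 2-fold (-0.80 against CKO EtOH and -0.86 against control 4OHT). Gbp2, a guanylate-binding protein, was under the filter on every array, at 5.29 in CKO 4OHT, 16.2 in CKO EtOH, 19.1 in control 4OHT and 11.5 in control EtOH. Its CKO 4OHT value lies under the 25th percentile of that array, 7.11, so the Gbp2 differences of -1.61 and -1.85 rest on dim signal and are not counted above. Irgm1 was at 6.91 in CKO 4OHT, 10.96 in CKO EtOH, 14.9 in control 4OHT and 13.1 in control EtOH, also under the filter. Gbp3 and Ifi47 were dim, at 3.45 to 9.34 over the 4 arrays.

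The immunoproteasome is a form of the proteasome in which Psmb8, Psmb9 and Psmb10 take the places of the constitutive catalytic subunits. Psmb8 was at 15.7 in CKO 4OHT, 46.6 in CKO EtOH, 56.4 in control 4OHT and 44.5 in control EtOH. The CKO 4OHT value was 2.97-fold below CKO EtOH (-1.57) and 3.59-fold below control 4OHT (-1.85), and it lay under the level filter. With 16 units added before log2 these became -0.98 and -1.19, the first no longer past 2-fold. Psmb9 was at 20.6 in CKO 4OHT, 30.1 in CKO EtOH, 31.3 in control 4OHT and 31.6 in control EtOH, so that CKO 4OHT was again lowest, at -0.55 and -0.60. Psmb10 was at 39.1 in CKO 4OHT, 49.7 in CKO EtOH, 59.0 in control 4OHT and 42.3 in control EtOH, where CKO 4OHT lay close to control EtOH. All 3 subunits were below 0 in both comparisons (48.6% and 47.8% of all measured genes), with medians of -0.55 against CKO EtOH and -0.60 against control 4OHT. In each comparison 1 of the 3 was past 2-fold and lower (1.86% and 2.24% of all measured genes).

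The constitutive proteasome was set beside it. Psmb4, a beta subunit, was at 1219 in CKO 4OHT and between 1179 and 1270.0 on the other arrays, and Psma2, an alpha subunit, was at 1055 in CKO 4OHT and between 989.8 and 1015 on the other arrays. None of its 7 measured beta subunits was past 2-fold, with differences from -0.028 to 0.23 against CKO EtOH and from -0.060 to 0.25 against control 4OHT. Few of all measured genes were: 1.86% lower and 1.78% higher against CKO EtOH, and 2.24% and 1.45% against control 4OHT. Psmb5, whose place Psmb8 takes, was at 575 in CKO 4OHT, 587 in CKO EtOH, 566 in control 4OHT and 518 in control EtOH. The 7 alpha subunits, which form the outer rings of the particle, lay between -0.14 and 0.28 against CKO EtOH and between -0.044 and 0.23 against control 4OHT. Psme1, a subunit of the interferon-inducible activator, was at 189 in CKO 4OHT, 222 in CKO EtOH, 254 in control 4OHT and 183 in control EtOH, with CKO 4OHT close to control EtOH. Psme3, a nuclear activator, was highest in CKO 4OHT at 196, the other arrays lying between 128 and 161. Psme4, a further activator, was lowest in CKO 4OHT at 211, the other arrays lying between 260 and 325. No test of the difference between the immunoproteasome and the constitutive subunits was possible, and the immunoproteasome probe sets were much dimmer than the constitutive ones.

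**Figure D3:**
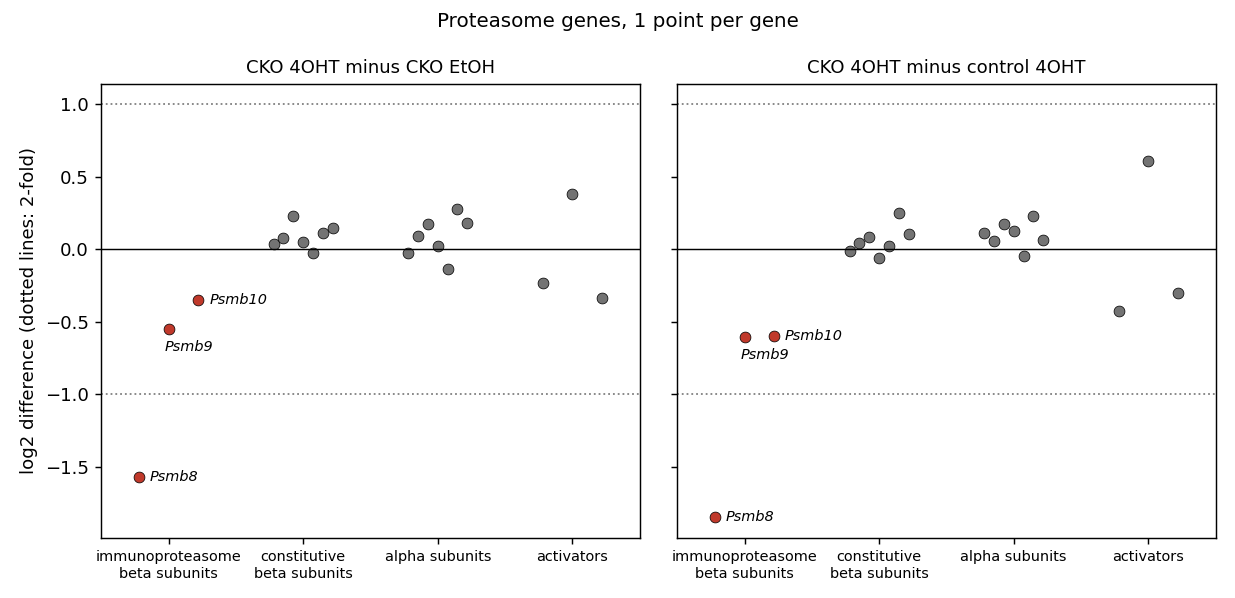
Log2 differences (y axis) of proteasome genes, 1 point per gene, for CKO 4OHT against CKO EtOH (left panel) and CKO 4OHT against control 4OHT (right panel), by class of subunit (x axis). The 3 immunoproteasome subunits lie between -0.35 and -1.85, and the constitutive beta and alpha subunits lie between -0.14 and 0.28. The 3 measured activators lie between -0.33 and 0.38 in the left panel and between -0.43 and 0.61 in the right panel.

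None of the 3 peptide transport or loading genes was past 2-fold in CKO 4OHT. Of all measured genes, 1.86% were lower and 1.78% higher against CKO EtOH, and 2.24% and 1.45% against control 4OHT. Tap1, a subunit of the peptide pump, was at 96.0 in CKO 4OHT, 86.3 in CKO EtOH, 88.3 in control 4OHT and 73.9 in control EtOH, with CKO 4OHT highest. Tap2, the other subunit, was at 43.6 in CKO 4OHT, 42.003 in CKO EtOH, 48.2 in control 4OHT and 38.2 in control EtOH. In the RefSeq gene order of GRCm38.p6, Psmb9, Tap1, Psmb8 and Tap2 are consecutive protein-coding genes on chromosome 17. Within that row the differences against CKO EtOH ran -0.55 for Psmb9, 0.15 for Tap1, -1.57 for Psmb8 and 0.053 for Tap2, so neighbours had unlike values. Tapbp (tapasin) was at 212 in CKO 4OHT, 244 in CKO EtOH, 293 in control 4OHT and 194 in control EtOH, and a second measured probe set had the same order of arrays, with values between 34.9 and 64.4.

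The class I chains stayed within a narrow band. H2-D1, a heavy chain, was at 810 in CKO 4OHT, 914 in CKO EtOH, 981 in control 4OHT and 765 in control EtOH. H2-K1, the other classical heavy chain, was at 615 in CKO 4OHT, 700.0 in CKO EtOH, 774 in control 4OHT and 576 in control EtOH. B2m, the shared light chain, was at 480 in CKO 4OHT, 503 in CKO EtOH, 588 in control 4OHT and 466 in control EtOH. In these probe sets the arrays had the same order in all 3 genes, control 4OHT highest and control EtOH lowest. Differences of CKO 4OHT were between -0.068 and -0.19 against CKO EtOH and between -0.28 and -0.33 against control 4OHT. The further measured probe sets of B2m and H2-K1 had CKO 4OHT lowest instead. For B2m the values were 342 in CKO 4OHT and 373 in control EtOH. For H2-K1 they were 346 and 360 in 1 probe set and 84.0 and 87.3 in another. Heavy chain genes are near-identical, and the probe sets used for H2-K1 and H2-D1 are of a design that can cross-hybridise, so these values may mix the heavy chains. For H2-D1, 4 further measured probe sets differed by -0.10 to 0.12 against CKO EtOH and by -0.22 to 0.12 against control 4OHT. The 1 of these that is not of that design had CKO 4OHT highest, at 46.4 in CKO 4OHT, 42.7 in CKO EtOH, 42.7 in control 4OHT and 29.2 in control EtOH, so the direction for H2-D1 depends on the probe set.

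Direct antiviral effectors were mostly dim. Of 13 members, 12 had a probe set of their own and 10 of those were under the filter, with no value above 18.2: Ifit1, Ifit2 and Ifit3, which bind viral RNA or its translation machinery, the RNA exonuclease Isg20, the dynamin-like Mx1 and Mx2, the oligoadenylate synthetase family members Oas2 and Oasl2, Rsad2 (viperin), and Bst2 (tetherin), which holds budding virions. Oasl2 was at 3.51 in CKO 4OHT, 5.76 in CKO EtOH, 5.41 in control 4OHT and 4.06 in control EtOH, all near the floor. Without detection calls it cannot be said whether these 10 genes were expressed. The measured effectors were Oas1a, which makes the messenger that activates RNase L, and Ifi35. Oas1a was at 31.0 in CKO 4OHT, 33.6 in CKO EtOH, 39.1 in control 4OHT and 25.4 in control EtOH, and CKO 4OHT lay between control EtOH and CKO EtOH. Ifi35 was at 114 in CKO 4OHT, 109 in CKO EtOH, 103 in control 4OHT and 107 in control EtOH. Neither was past 2-fold in any comparison of arrays, where at most 2.24% of all measured genes were lower and 1.78% higher.

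Control 4OHT against control EtOH gives the drug without the recombinase, with no array of CKO cells in it. None of the 17 measured members was past 2-fold in this comparison, where 1.27% of all measured genes were higher and 0.241% lower. The members' values were nonetheless on 1 side more often than those of all genes, since 13 of the 17 lay above 0 (43.3% of all measured genes did). Their median difference was 0.34, and -0.044 over all measured genes. Oas1a (0.62), Irf1 (0.61), Tapbp (0.59), Psmb10 (0.48) and H2-K1 (0.43) had the widest differences. Control 4OHT was the highest of the 4 arrays for 10 of the 17 measured members, which held for 23.8% of all measured genes. In cells that had received solvent, CKO EtOH against control EtOH had no member past 2-fold either (0.0536% of all measured genes were higher and 0% lower). There too 13 of 17 lay above 0, against 43.7% of all measured genes, with a median of 0.14 that was -0.027 over all.

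Drug against solvent could then be compared between CKO and control cells, on pairs of arrays that share none. In CKO cells 12 of the 17 measured members lay below 0, and in control cells 13 lay above 0. Below 0 in CKO and above 0 in control cells were 9 of the 17, a pattern that 20.4% of all measured genes had. The difference between these 2 drug effects, CKO minus control, was below 0 for 14 members (45.3% of all measured genes), with a median of -0.61 against 0.044 over all. It was past 2-fold downward for Psmb8 (-1.91), Irf1 (-1.74) and Ifih1 (-1.11), a count of 3 where 2.9% of all measured genes were called, and upward for Ifi209 (2.48), where 2.75% were. For the class I chains it was -0.61 for H2-K1, -0.53 for H2-D1 and -0.40 for B2m. Ifi35 (0.12) and Trim25 (0.26) were the other members above 0. Among the dim members it was -2.35 for Gbp2, -1.29 for Irf7 and -1.13 for Oasl2, on values under the level filter, and the second Tapbp probe set gave -1.04. With 1 array in each of the 4 groups these differences were not tested.

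**Figure D4:**
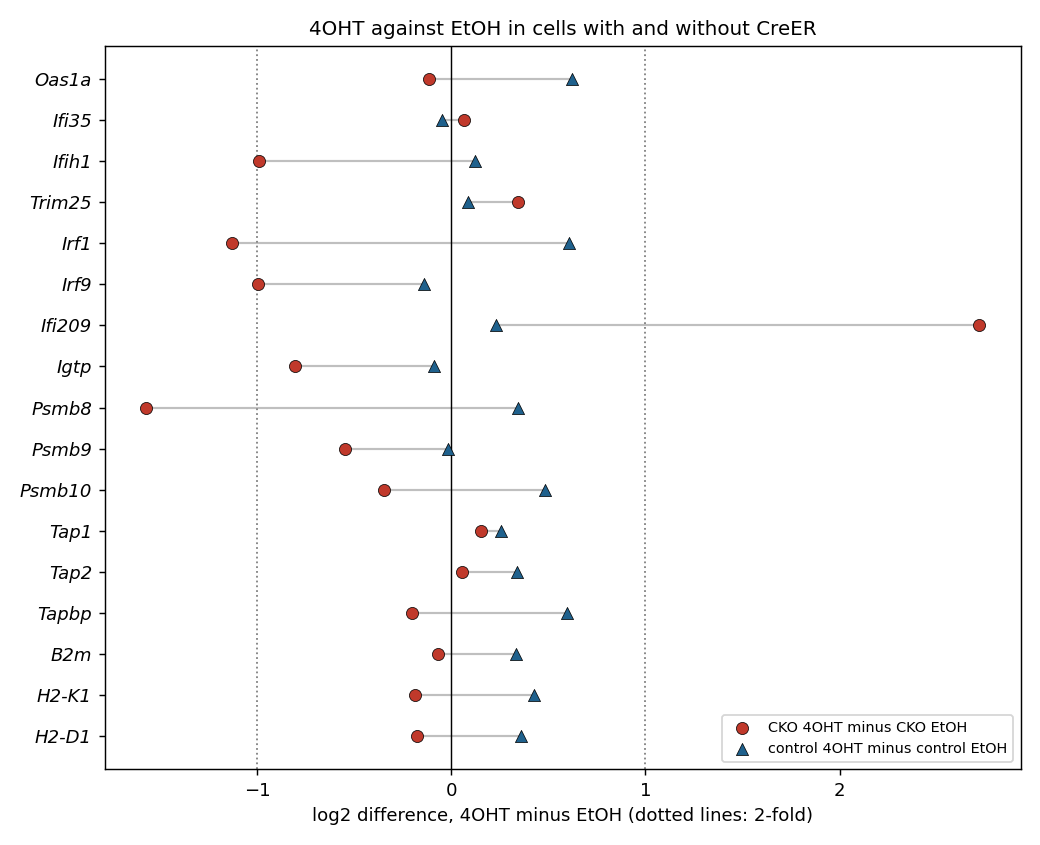
Log2 difference of 4OHT against EtOH (x axis) in CKO cells (circles) and in control cells (triangles) for the 17 measured members (y axis). For 9 members the circle lies below 0 and the triangle above it, with the widest gaps for Psmb8, Irf1 and Ifih1, and Ifi209 has its circle at 2.72.

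The remaining interferon pathway was read from related lists of genes. Of 12 interferon ligands, 8 had a probe set of their own and none was measured, with values from 3.83 to 12.1; Ifnb1, interferon beta, was at 7.47 in CKO 4OHT, 8.46 in CKO EtOH, 8.72 in control 4OHT and 5.899 in control EtOH, all dim. Among 8 measured receptors and kinases, none was past 2-fold against CKO EtOH (1.86% of all measured genes were lower and 1.78% higher). Against control 4OHT 1 was lower (2.24% of all measured genes). That gene was Ifngr1, the ligand-binding chain of the interferon gamma receptor, at 56.5 in CKO 4OHT, 109.6 in CKO EtOH, 113 in control 4OHT and 85.7 in control EtOH, just at the threshold (-1.002). Ifnar2, a chain of the type I receptor, was at 85.2 in CKO 4OHT, 147 in CKO EtOH, 164 in control 4OHT and 138 in control EtOH. CKO 4OHT was lowest for both receptor chains. The kinase Jak1 was at 239 in CKO 4OHT and between 270.1 and 285 elsewhere, and Il10rb, a receptor chain shared with type III interferon, was at 114 in CKO 4OHT and between 153 and 172 elsewhere. The partner chains Ifngr2 and Ifnar1 differed by 0.044 and -0.12 against control 4OHT.

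Of 8 measured signal transducers and regulators, Socs3, an inhibitor of JAK signalling that STAT factors induce, was the 1 gene past 2-fold in each comparison of CKO 4OHT. It was at 40.3 in CKO 4OHT, 82.4 in CKO EtOH, 81.0 in control 4OHT and 101 in control EtOH. CKO 4OHT was apart and lower, at -1.03 against CKO EtOH and -1.01 against control 4OHT. Of all measured genes, 1.86% were lower against CKO EtOH, 2.24% were lower against control 4OHT, and 1.09% were apart and lower. Stat3 was at 223 in CKO 4OHT, 378 in CKO EtOH, 402 in control 4OHT and 338 in control EtOH, lowest in CKO 4OHT by less than 2-fold. The difference of the drug effects, described above for the members, was -1.01 for Stat3, -1.03 for Ifnar2 and -1.36 for Ifngr1. Ptpn2, a phosphatase that acts on JAK kinases, was at 136 in CKO 4OHT and at 153 to 190.3 on the other arrays. Among 5 measured nucleic acid sensors and adaptors, 1 was past 2-fold and higher, Ikbke, a kinase that activates Irf3 and is also induced by NF-kB. Its values were 191 in CKO 4OHT, 79.0 in CKO EtOH, 73.2 in control 4OHT and 75.8 in control EtOH, apart from the 3 other arrays. Of all measured genes, 1.78% were higher against CKO EtOH, 1.45% were higher against control 4OHT, and 0.751% were apart and higher. Myd88, the adaptor of Toll-like receptors, was at 98.4 in CKO 4OHT and within 85.5 to 108 on the other arrays.

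A wider list of 50 interferon-stimulated genes had 14 measured members. In each comparison 1 was lower in CKO 4OHT, as were 1.86% of all measured genes against CKO EtOH and 2.24% against control 4OHT. None was higher in CKO 4OHT (1.78% and 1.45% of all measured genes). Parp9, an ADP-ribosyltransferase family member, was at 17.6 in CKO 4OHT, 46.3 in CKO EtOH, 33.2 in control 4OHT and 29.2 in control EtOH, which is -1.40 against CKO EtOH and -0.92 against control 4OHT. Samhd1, an enzyme that depletes nucleotides needed by viruses, was at 46.0 in CKO 4OHT, 71.1 in CKO EtOH, 94.5 in control 4OHT and 55.7 in control EtOH, which is -0.63 against CKO EtOH and -1.04 against control 4OHT. Ifitm3, a membrane protein that blocks virus entry, was at 595 in CKO 4OHT, 888 in CKO EtOH, 881 in control 4OHT and 582 in control EtOH, where the CKO 4OHT value lay beside that of control EtOH. Ifitm2 was at 394 in CKO 4OHT, 462 in CKO EtOH, 484 in control 4OHT and 336 in control EtOH. The difference of the drug effects was past 2-fold downward for 3 of the 14, Parp9 (-1.59), Samhd1 (-1.39) and Ifitm3 (-1.18). Of all measured genes, 2.9% were called downward. None of the 14 was past 2-fold upward, where 2.75% of all measured genes were. The list had a median difference of -0.13 against CKO EtOH, where it was 0.0085 over all measured genes. Against control 4OHT its median was -0.21, and 0.013 over all.

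No gene of 8 measured in a further class I list was past 2-fold in either comparison of CKO 4OHT, and their signs were mixed. Against CKO EtOH, 1.86% of all measured genes were lower and 1.78% higher, and against control 4OHT 2.24% and 1.45%. Erap1, the protease that trims class I peptides, was at 24.8 in CKO 4OHT, 40.1 in CKO EtOH, 45.1 in control 4OHT and 41.1 in control EtOH, with CKO 4OHT lowest by less than 2-fold. The general chaperones Pdia3 and Calr were both highest in CKO 4OHT, at 856 for Pdia3 and 704 for Calr, where the other arrays held 679 to 764 for Pdia3 and 393 to 512 for Calr. MHC class II genes had 1 measured member, H2-Eb1, at 22.5 in CKO 4OHT, 15.97 in CKO EtOH, 19.4 in control 4OHT and 18.1 in control EtOH.

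Other cells in the cultures would also bring class I and interferon-stimulated transcripts. Of 7 leukocyte markers with a probe set, 2 were measured, Cd3e and Laptm5, neither above 28.9, and the summed level of the 7 was 69.1 in CKO 4OHT, 78.9 in CKO EtOH, 78.3 in control 4OHT and 71.7 in control EtOH. Ptprc, which marks leukocytes, was at 3.90 to 4.73, near the floor. Langerhans cell markers summed to 62.6 in CKO 4OHT, 54.3 in CKO EtOH, 56.2 in control 4OHT and 62.9 in control EtOH, with Cd207 at 6.31 to 8.27. Endothelial markers, none of 5 measured, summed to 34.8 in CKO 4OHT, 42.9 in CKO EtOH, 41.1 in control 4OHT and 34.6 in control EtOH. Leukocyte and endothelial sums were thus lower in CKO 4OHT and control EtOH than on the other arrays, as many members were. These sums rest mostly on dim probe sets, and single markers did not all follow them. Ptprc was highest in CKO 4OHT and Cdh5 was highest in control EtOH. Melanocyte markers, 3 of 4 measured, summed to 101 in CKO 4OHT, 78.7 in CKO EtOH, 88.1 in control 4OHT and 85.8 in control EtOH, highest in CKO 4OHT, where Dct was at 40.3 and between 26.5 and 27.5 on the other arrays. Fibroblast markers, 1 of 6 measured, summed to 61.9 to 67.3. The part of such cells in the differences above was not tested, and fewer cells of a type cannot be told apart from less RNA per cell in these bulk samples.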

How the data were processed

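Total RNA of the 4 cultures was labelled with biotin by a 3′ in vitro transcription kit and hybridised to an Affymetrix mouse array, per the labels' protocols. The deposited table holds 1 intensity for each of 22626 probe sets and array. Per the submitters' processing notes these come from RMA, which corrects background, normalizes between arrays and summarises probes; no version of RMA is given in the sources. The values are linear (2.66 to 7167), carry no detection calls, and RMA compresses differences of dim probe sets.

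Log2 was taken with no pseudocount. Platform annotation named 1 gene for 20380 probe sets, several for 691 and none for 1555. A gene was represented by its probe set with the highest mean log2 value among those naming it alone. With 1 array per group no test was run, and "called" means at least 2-fold. Full values were given for members past 2-fold or among the brightest 2 of a role, and related genes were named when past 2-fold or brightest. Values on every array of remaining measured members, and Psmb5, Psme1, Psme3, Psme4, Erap1, Ifngr2, Ifnar1 and Ifnb1, were chosen after their values were seen. Members and lists were chosen with earlier results of these data known. Promoter windows came from RefSeq, GRCm38.p6. Counting steps were tested on simulated data with known shifts past the threshold and little noise. This checks the counting and not the error of 1 array per group. Python 3.11.15, numpy 2.4.6, pandas 2.3.3 and matplotlib 3.10.9 were used.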

Additional observations from a re-analysis of the deposited data

Results flagged for a closer look

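Psmb8, Irf1 and Ifih1 drew attention because 4OHT against EtOH ran in opposite directions in CKO and control cells and the gap was at least 2-fold. For Psmb8 the difference was -1.57 in CKO cells and 0.34 in control cells, a gap of -1.91. Irf1 had -1.13 in CKO cells and 0.61 in control cells, a gap of -1.74. Ifih1 had -0.99 in CKO cells and a small 0.12 in control cells, a gap of -1.11. With 16 units added before log2 the Ifih1 gap was -0.81, under 2-fold, while those of Psmb8 (-1.24) and Irf1 (-1.47) stayed past it. The share of all measured genes that meets this joint rule was not computed. Each gap rests on 4 arrays with 1 per group, and the difference was not tested.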

How the results depend on the processing

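No paired analysis was possible because each group has 1 array, and for the same reason no replicate could be left out. Other settings gave 116 further values of the member counts and medians, of which 96 stayed within 1.5 times the main count or within 0.25 of the main median. The other 20 were counts. Shares of all measured genes were not computed at these other settings, so the member counts below stand without a share beside them. At a 1.5-fold threshold the lower members became 5 against CKO EtOH, 6 against control 4OHT, 9 in the difference of the drug effects and 4 apart in CKO 4OHT, and the higher members became 3 for control 4OHT and 1 for CKO EtOH against control EtOH. With no level filter, which lets in the dim Gbp2, Irgm1, Oasl2 and Irf7, lower members were 5 against control 4OHT, 6 in the difference of the drug effects and 2 apart. With a filter of 4 times the table median, 8 members remained: lower members were 1 in each of the 2 comparisons of CKO 4OHT and in the difference of the drug effects and 0 apart, and higher members were 0 in all 4 of these counts. That filter removes Psmb8, Ifih1 and Ifi209 by construction. With 16 units added before log2, lower members were 0 against CKO EtOH and 0 apart, as Psmb8 became -0.98 and Irf1 -0.95, while Ifih1 became -0.77 against control 4OHT and -0.81 in the difference of the drug effects. The same setting gave Psmb8 -1.19 against control 4OHT and -1.24 in the difference of the drug effects, and gave Ifi209 1.66 against CKO EtOH, 1.502 against control 4OHT and 1.56 in the difference of the drug effects. Arrays centred on the median of the measured genes gave 4 lower members against CKO EtOH, since Ifih1 (-1.01) and Irf9 (-1.02) then passed the threshold. Leaving out cross-hybridising probe sets, using the lowest-mean measured probe set, and leaving control 4OHT out of the 3 arrays set against CKO 4OHT moved none of these counts or medians by as much. No named value past 2-fold changed sign. Dim signal limits all values near or under 10 units, those of Gbp2 and of Ifi209 outside CKO 4OHT among them.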
